A study of Arabidopsis thaliana with 4 samples.

Results

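The comparison set roots of Arabidopsis thaliana plants labelled CEPD1ox, a line overexpressing the gene CEPD1, against roots of wild-type plants (WT, accession Col). Each genotype was measured on 1 Affymetrix Arabidopsis Gene 1.0 ST array, so the comparison rests on 2 of the 4 arrays of the series; the other two hold lines labelled CEPD2ox and CEPDL2ox and are given beside it. Per the labels, roots were taken at 14 d from untreated seedlings kept at 22 °C under constant light on vertical plates. Seedlings had been transferred at 7 d to plates rich in nitrogen, where 10 mM NH4Cl and 10 mM KNO3 supplied nitrogen and potassium, so all genotypes share this replete state. The labels name neither the promoter that drives CEPD1 nor how many lines or plants each RNA sample came from. The deposited table has 38408 rows, of which 16722 are annotated with 1 gene. Taking for each gene the row with the highest mean over the 4 arrays left 16548 genes, and these are the genes described. A difference is the log2 signal on the CEPD1ox array minus that on the WT array, and a fold is 2 raised to its size. With 1 array per genotype there is no spread within a genotype and no test, so every difference below is a difference between those arrays and has no replicate check.

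CEPD1 is one of a small group of glutaredoxin-like polypeptides of class III. In the known pathway, nitrogen-starved roots release CEP peptides, which are perceived by a receptor kinase in the shoot. The shoot phloem then makes CEPD polypeptides, which travel down to the root and raise high-affinity nitrate uptake there. CEPDL2 acts in the same direction in response to the nitrogen status of the shoot itself. CEPH is a type 2C protein phosphatase of the root that acts on the nitrate transporter NRT2.1, the subject of the study's title.

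The CEPD1 row (AT1G06830) was near background. Its log2 signal was 3.04 on the CEPD1ox array, 2.19 in CEPD2ox, 2.34 in CEPDL2ox and 2.66 in WT. The CEPD1ox array was thus the highest of the 4, by 0.38 over WT, but this signal exceeded only 25.5% of all rows on that array, and the WT signal exceeded 20.6%. The row of CEPD2 (AT2G47880) by contrast read 9.22 in CEPD2ox, and that of CEPDL2 (AT3G62960) read 5.49 in CEPDL2ox. The CEPD1 row thus gave no clear check of the CEPD1ox label, and each direction below is that of the library labelled CEPD1ox. Whether the probes of this row can detect the introduced transcript was not tested. CEPD2 and CEPDL2 themselves were not raised in CEPD1ox, with differences of -0.09 and -0.15.

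The scatter of differences depended strongly on signal. Across 4661 genes with a mean log2 signal below 3 on both arrays the SD of the difference was 0.39, and 1.89% of genes were past 2-fold. It was 0.25 for the 4049 genes from the array median to 7, 0.19 for the 3076 genes from 7 to 9, and 0.16 for the 866 genes at 9 and above, of which 0 were past 2-fold. The description therefore rests on the 7991 genes whose mean over the CEPD1ox and WT arrays was at or above 5.13, the mean of the medians of both arrays over all rows. Among these, 7 genes (0.0876%) were at least 2-fold higher in CEPD1ox than in WT and 10 (0.125%) were at least 2-fold lower. At 1.5-fold, 69 genes (0.863%) were higher and 85 (1.06%) lower. A gene can meet this limit through a single array, so the counts are in part made by it. Of the genes past 2-fold, HSP23.5 and AT5G04120 met it only through CEPD1ox, with WT signals of 4.69 and 4.65. AT5G44572 and AT4G12545 met it only through WT, with CEPD1ox signals of 4.30 and 4.84. Some genes named below that lay just under 2-fold did likewise. Without the limit on signal, 117 of all 16548 genes (0.707%) were 2-fold higher and 71 (0.429%) lower. The numbers past 2-fold were of the same order between the arrays of the other lines: CEPDL2ox against CEPD2ox, a pair that shares neither array, gave 23 higher and 9 lower of 7973 genes. Root hair marker genes were read on all arrays: EXPA18 at 8.36 in CEPD1ox and 8.24 in WT, and EXPA7 at 6.72 and 6.60 in the same order. The fixed markers of endodermis, stele and root tip had no row annotated with that gene alone.

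**Figure D1:**
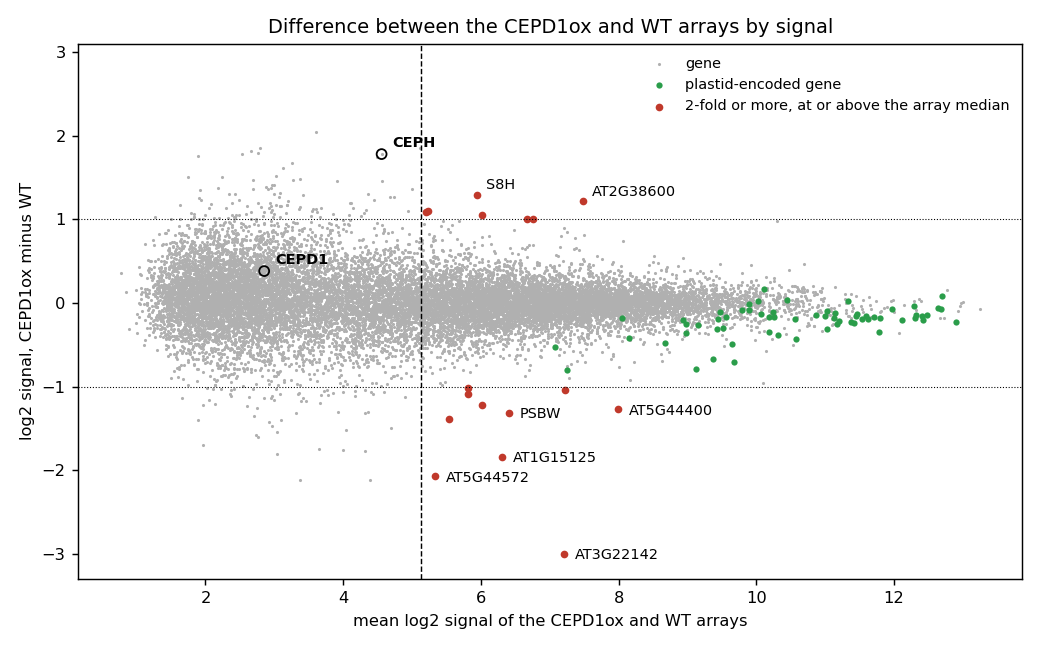
Each point is 1 gene. The x axis is the mean log2 signal of the CEPD1ox and WT arrays and the y axis the log2 signal in CEPD1ox minus WT. The dashed line is the array median (5.13) and dotted lines mark 2-fold. The 7 genes above and 10 below the dotted lines at or above the median are red, plastid-encoded genes are green and mostly below 0, and CEPD1 lies at low signal.

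Of the genes higher in CEPD1ox, S8H (AT3G12900) had the largest difference at or above the array median. It encodes the scopoletin hydroxylase that makes the iron-mobilising coumarin fraxetin in iron-deficient roots. Its log2 signal was 6.59 in CEPD1ox, 5.70 in CEPD2ox, 4.94 in CEPDL2ox and 5.30 in WT. CEPD1ox was 2.45-fold above WT and also above both other lines, while CEPDL2ox lay below WT. AT2G38600, of an acid phosphatase family, read 8.09 in CEPD1ox, 7.78 in CEPD2ox, 8.36 in CEPDL2ox and 6.87 in WT, a 2.32-fold difference. Here all 3 lines lay above WT, with WT the lowest by far. HSP23.5 (AT5G51440), a small heat shock protein of mitochondria, read 5.79 in CEPD1ox, 4.86 in CEPD2ox, 5.22 in CEPDL2ox and 4.69 in WT, a 2.14-fold difference.

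AT5G04120, of the phosphoglycerate mutase family, read 5.74 in CEPD1ox, 4.19 in CEPD2ox, 4.14 in CEPDL2ox and 4.65 in WT. CEPD1ox was 2.13-fold above WT, and both other lines lay below it. AT5G57510, AT4G27652 and AT5G10040, which have no symbol in the gene table, were 2.07-, 2.01- and 2.01-fold higher, and CEPD1ox was the highest of the 4 arrays for each. AT4G27652 and AT5G10040 lay just inside 2-fold, with differences of 1.01 each. AT5G54050, with a C1 domain, and the germin-like gene AT5G38910 lay just outside at 0.98. AT5G38910 has a strong signal, at 10.79 in CEPD1ox, 10.06 in CEPD2ox, 10.51 in CEPDL2ox and 9.81 in WT. The next genes were AT2G30660, of the crotonase family (0.98), AER, which encodes an alkenal reductase that detoxifies reactive carbonyls (0.94), AT5G44005 (0.93), NDB4, an alternative NAD(P)H dehydrogenase of mitochondria (0.92), and AT3G60270, a cupredoxin-type copper protein gene (0.90).

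Of the genes lower in CEPD1ox, AT3G22142 differed most. It belongs to the proline-rich proteins with a lipid-transfer (eight-cysteine) domain, which are found in cell walls. Its log2 signal was 5.71 in CEPD1ox, 5.97 in CEPD2ox, 6.98 in CEPDL2ox and 8.71 in WT. CEPD1ox was 8.01-fold below WT, and both other lines were low as well. AT5G44572, without a symbol, read 4.30 in CEPD1ox, 5.81 in CEPD2ox, 4.88 in CEPDL2ox and 6.38 in WT, a 4.21-fold difference with both other lines between. AT1G15125, of the SABATH family of small-molecule methyltransferases, read 5.39 in CEPD1ox, 6.16 in CEPD2ox, 5.47 in CEPDL2ox and 7.23 in WT. That was 3.59-fold below WT, with CEPDL2ox nearly as low.

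AT4G12545, another lipid-transfer-like gene, read 4.84 in CEPD1ox, 6.08 in CEPD2ox, 5.61 in CEPDL2ox and 6.22 in WT, a 2.61-fold difference. CEPD1ox was the lowest array, with CEPD2ox close to WT and CEPDL2ox between. PSBW, a small subunit of photosystem II encoded in the nucleus, read 5.75 in CEPD1ox, 6.81 in CEPD2ox, 6.15 in CEPDL2ox and 7.06 in WT, a 2.48-fold difference. AT5G44400, of the berberine bridge enzyme-like family of flavin oxidases, read 7.36 in CEPD1ox, 7.71 in CEPD2ox, 7.75 in CEPDL2ox and 8.63 in WT, a 2.41-fold difference shared in direction by the other lines. The rest past 2-fold were AT1G27020 (-1.22), AT2G01610, of the invertase and pectin methylesterase inhibitor family (-1.09), AT2G36690, of the 2-oxoglutarate-dependent dioxygenases (-1.04), and AT1G03620, with an ELMO domain (-1.02). Just outside lay AT4G31650, a B3-domain gene (-0.98), and AT5G23130, a LysM-domain gene (-0.96). PRX71 (AT5G64120), a class III peroxidase that acts on the cell wall, followed at -0.96 from a high level, with 9.61 in CEPD1ox, 10.93 in CEPD2ox, 10.03 in CEPDL2ox and 10.57 in WT. AT1G62510, again lipid-transfer-like, was at -0.94.

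**Figure D2:**
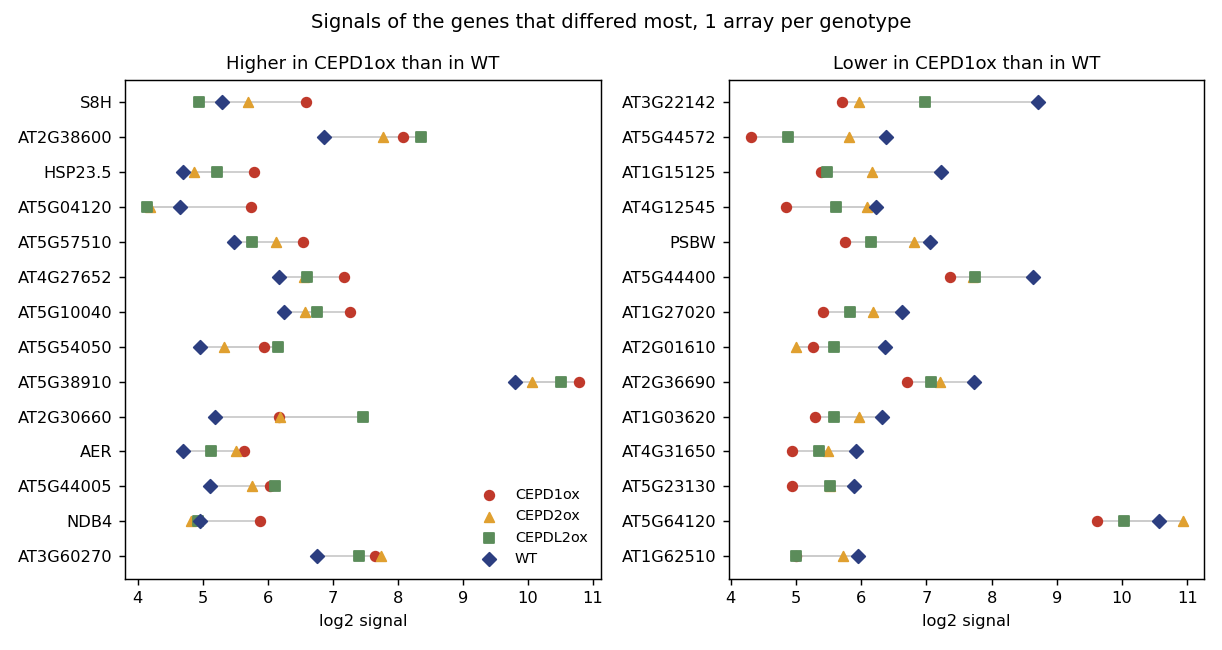
Log2 signals (x axis) of the 14 genes with the largest difference in each direction at or above the array median, 1 point per array. Red circles are CEPD1ox, triangles CEPD2ox, squares CEPDL2ox and blue diamonds WT. WT is at an end of the 4 arrays for 11 of the 14 higher and 13 of the 14 lower genes, CEPD1ox for 9 and 12. The genes were chosen for that difference, so these counts are largely fixed by the choice. Over all genes at or above the median, WT was highest in 25.5% and lowest in 23.4%, and CEPD1ox in 23.1% and 24.9%.

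The other lines place these differences. Of the 7 genes at least 2-fold higher, both other lines were nearer to WT in 4 (S8H, HSP23.5, AT5G04120 and AT4G27652), nearer to CEPD1ox in 1 (AT2G38600), and on different sides in 2. Of the 10 lower, both other lines were nearer to CEPD1ox in 5, nearer to WT in 1 (AT4G12545), and on different sides in 4. Where both other lines lie with CEPD1ox, a difference common to the lines and one of the single WT sample cannot be told apart. Under a signal limit that treats all arrays alike, 7967 genes had a mean over the 4 arrays at or above the median. Among these, CEPD1ox lay 1.5-fold or more beyond all 3 other arrays in 4 genes above and 8 below. The same held for 9 and 12 genes in CEPD2ox, 28 and 3 in CEPDL2ox, and 9 and 12 in WT. Under the limit on the mean of CEPD1ox and WT used elsewhere, CEPD1ox lay 1.5-fold or more above all others in 9 of 7991 genes and below them in 6. AT5G04120 was the 1 gene of these that lay 2-fold apart, and it met that limit only through its CEPD1ox signal. Under the limit on 4 arrays, CEPD1ox lay 2-fold above all others in 0 genes and below them in 0.

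The 9 genes above all others were AT5G04120, NDB4, S8H, AT1G26390, AT1G13520, SWEET13, AT1G32950, At12Cys and AT3G25210, of which S8H, AT1G26390, AT1G13520 and SWEET13 also met the limit on 4 arrays. AT1G26390, a berberine bridge enzyme-like gene, read 6.41 in CEPD1ox, 5.41 in CEPD2ox, 5.30 in CEPDL2ox and 5.62 in WT. SWEET13, a sucrose transporter, read 6.06 in CEPD1ox, 4.30 in CEPD2ox, 5.40 in CEPDL2ox and 5.37 in WT. The other 3 arrays lay close together for AT1G26390, while for SWEET13 CEPD2ox was far below the rest. Of the 6 below all others, AT2G39630, a glycosyltransferase gene, had the widest gap, with 7.71 in CEPD1ox against 8.59 in CEPD2ox, 8.59 in CEPDL2ox and 8.63 in WT. The other 3 arrays were nearly equal there. The plastid gene rpl32, AT4G12545, AT3G19660, AT5G20130 and AT5G23130 made up the rest, and the limit on 4 arrays added AT1G25141 and AT4G01350.

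Photosynthesis genes were lower in CEPD1ox as a group. Of 63 nuclear genes of the photosystems, the Calvin cycle and chlorophyll synthesis listed for this, 11 had a row of their own. All 11 were lower in CEPD1ox than in WT, with a median difference of -0.87 and a range from -1.31 to -0.39, and 8 were at least 1.5-fold lower. Over all genes the median difference was 0.01, 47.3% of genes were below 0 and 2.95% were at least 1.5-fold lower; among genes below the array median, where 8 of the 11 lie, 43.7% were below 0 and 4.71% at least 1.5-fold lower. The members were listed after PSBW, PRK and RCA had been seen to be low, so those genes do not support the count. All 11 stayed lower under each other scaling of the arrays.

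Beside PSBW, LHCB1.5 and RCA lay at or above the array median. LHCB1.5, a chlorophyll-binding antenna protein of photosystem II with near-identical copies in the genome, read 5.34 in CEPD1ox, 6.16 in CEPD2ox, 5.61 in CEPDL2ox and 6.14 in WT. RCA, the activase of Rubisco, read 5.73 in CEPD1ox, 6.14 in CEPD2ox, 5.66 in CEPDL2ox and 6.31 in WT. CEPD1ox and CEPDL2ox were low in both genes, and CEPD2ox lay near WT. The Calvin cycle genes PRK and SBPASE were at -1.31 and -1.06, the photosystem I subunit genes PSAE1 and PSAN at -1.08 and -0.62, and PSBY of photosystem II at -0.87. PORB, which acts in chlorophyll synthesis, was at -0.88, the antenna gene LHCB4.1 at -0.51 and ATPC1 of the chloroplast ATP synthase at -0.39. These 8 genes lay below the array median, with signals from 2.83 to 4.30 in CEPD1ox and from 3.90 to 5.17 in WT.

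The other lines differed in this group. CEPDL2ox was below WT in 11 of 11 genes, with a median difference of -0.65, and CEPD2ox in 7 of 11, with a median of -0.14. CEPD1ox was the lowest of the 4 arrays in 8 genes. The comparisons share the WT array, so these counts are not independent. In bulk roots, fewer green cells and less RNA per cell cannot be told apart. Of the 9 genes fixed as markers of shoot tissue, 2 had a row of their own, RCA and PRK, and both were highest in WT. PRK read 3.27 in CEPD1ox, 2.94 in CEPD2ox, 2.47 in CEPDL2ox and 4.58 in WT, so CEPD1ox was not the lowest array. Whether traces of shoot in the samples had a part in the result was not tested.

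Plastid-encoded genes, whose transcripts are made in root plastids as well as in leaves, were mostly lower too, by smaller amounts. All 63 with a row of their own lay above the array median, with log2 signals from 6.81 to 12.8 in CEPD1ox and from 7.34 to 13.0 in WT. Of these, 58 were lower in CEPD1ox (51.1% of all genes at or above the array median were), with a median difference of -0.18 and a range from -0.80 to 0.17. After shifting both arrays to the same median 56 were lower, and 58 were under the quantile and lowess scalings. CEPD1ox was the lowest of the 4 arrays for 44 of them, against 24.9% over all genes at or above the median. For nuclear genes of high signal the median difference was 0.00 over 811 nuclear genes with a mean of 9 or above. Of the 811, 404 were lower, and CEPD1ox was the lowest of the 4 arrays in 184. Over the 58 nuclear genes at 11 or above the median difference was -0.06. Of the 58, 41 were lower, and CEPD1ox was the lowest array in 24.

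By complex, all 13 photosystem II genes were lower (median -0.22), as were all 5 of photosystem I (-0.21), all 6 of the cytochrome b6f group (-0.22), all 4 of ATP synthase (-0.17) and all 10 of the NDH complex (-0.18). Genes of the plastid ribosome and RNA polymerase were lower in 13 of 17, with a median of -0.11. The largest differences were in small genes. psbT, a photosystem II subunit, read 6.85 in CEPD1ox, 7.60 in CEPD2ox, 7.24 in CEPDL2ox and 7.65 in WT. rpl32, a ribosomal protein gene, read 8.73 in CEPD1ox, 9.53 in CEPD2ox, 9.36 in CEPDL2ox and 9.52 in WT. CEPD1ox was the lowest array in both. psaJ and petN followed at -0.71 and -0.66, and rbcL, the large subunit of Rubisco, was at -0.35 with 11.6 in CEPD1ox and 12.0 in WT. The 5 genes not lower were rpl36 (0.17), rpl20 (0.09), accD (0.03), rpoC2 (0.03) and rps2 (0.02). In CEPDL2ox 54 of the 63 genes were below WT, with a median of -0.13, and in CEPD2ox 24, with a median of 0.04.

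**Figure D3:**
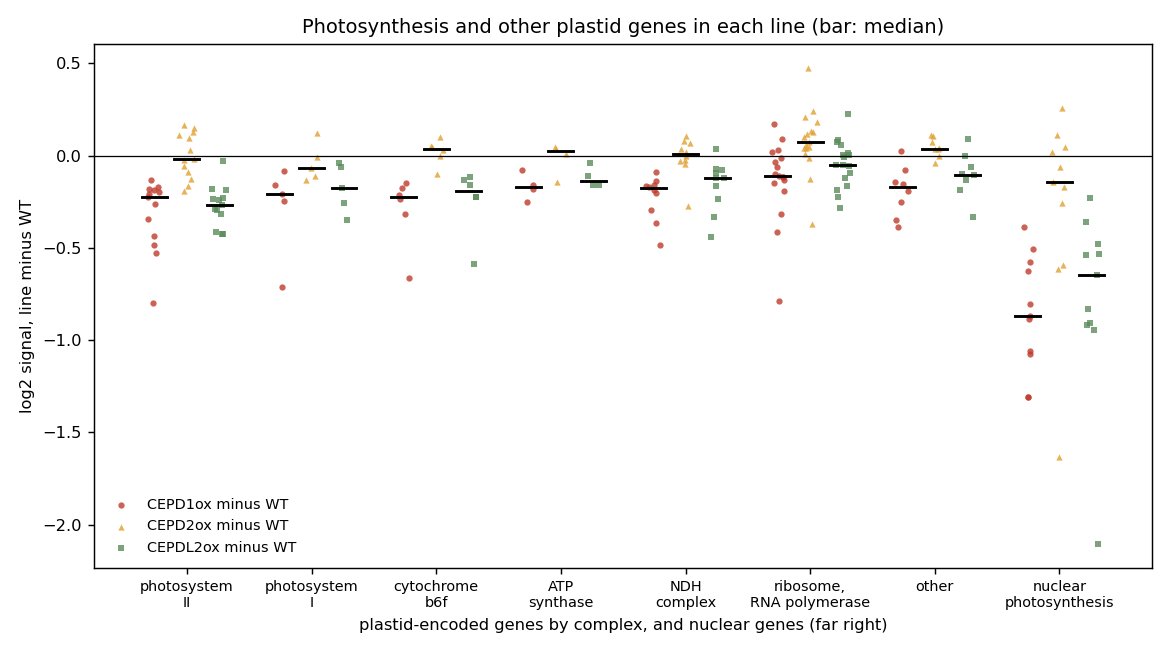
Log2 signal of each line minus WT (y axis) for plastid-encoded genes grouped by complex, and for 11 nuclear photosynthesis genes at the far right. Each point is 1 gene, black bars are medians, and red circles are CEPD1ox, triangles CEPD2ox and squares CEPDL2ox. CEPD1ox medians lie at -0.22 in photosystem II and -0.87 in the nuclear genes, and CEPD2ox medians nearer to 0 in every group.

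A group of genes known to respond to impaired mitochondria was higher. The list of 21 such genes was drawn up after HSP23.5 and NDB4 had appeared among the leading genes, so its direction is in part fixed by that choice. It holds alternative respiratory enzymes and genes that mitochondrial stress induces through membrane-bound NAC factors. Of its members, 10 had a row of their own and all 10 were higher in CEPD1ox, with a median difference of 0.69 and the least in NDB2 at 0.28. Over all genes 51.9% were above 0 and 4.56% were at least 1.5-fold higher, which 6 of these 10 were. At or above the array median 48.7% were above 0, as were all 7 members there. Of these 7, HSP23.5, At12Cys, NDB4 and AT5G43450 had WT signals of 4.69, 4.83, 4.96 and 5.06, below the array median. They met the limit on the mean of both arrays only through a higher CEPD1ox signal. The count of 7 is thus in part made by that limit and adds little to the count over all 10. The direction held under each other scaling.

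NDB4 read 5.88 in CEPD1ox, 4.81 in CEPD2ox, 4.92 in CEPDL2ox and 4.96 in WT. At12Cys (AT5G09570), a small mitochondrial twin-cysteine protein gene, read 5.66 in CEPD1ox, 4.46 in CEPD2ox, 5.06 in CEPDL2ox and 4.83 in WT. In both, CEPD1ox lay above the other 3 arrays. UPOX (AT2G21640), a gene induced by oxidative stress, was at 0.56, AT5G14730 at 0.47 and NDB2, another alternative NAD(P)H dehydrogenase, at 0.28. AT5G43450, a dioxygenase-like gene, was at 0.76, but CEPDL2ox was higher still, with 6.07 against 5.82 in CEPD1ox. CEPD1ox was the highest of the 4 arrays in 6 of the 10 genes, and the median difference of the list from WT was 0.42 in CEPDL2ox and -0.05 in CEPD2ox. Over the 8 other small heat shock genes measured the median was 0.11, the largest difference was 0.50 in HSP22, and HSP15.7 was lowest at -0.68.

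CEPH (AT4G32950) was 3.44-fold higher, with 5.45 in CEPD1ox, 5.87 in CEPD2ox, 7.51 in CEPDL2ox and 3.67 in WT. Its mean over the CEPD1ox and WT arrays lies below the array median, and CEPD1ox was the lowest of the 3 lines. Of the 12 clade E type 2C phosphatases to which CEPH belongs, 10 had a row, and 9 were higher in CEPD1ox, with a median of 0.25, where 51.9% of all genes were higher. CEPD2ox was below WT in 1 of the 10 (median 0.09) and CEPDL2ox in 3 (0.19). WT was the lowest of the 4 arrays in 6, so a difference of the lines and one of the single WT sample cannot be told apart. EGR1, a negative regulator of growth under drought, read 5.30 in CEPD1ox, 4.73 in CEPD2ox, 4.72 in CEPDL2ox and 4.41 in WT, and was 1.86-fold higher. Of the others, AT5G26010 was at 0.42, EGR3 at 0.37, EGR2 at 0.26 and AT5G01700 at 0.25, while AT1G03590, AT3G02750 and AT1G16220 lay between 0.01 and 0.06. AT1G79630 was at -0.34. Leaving the lower signals aside, the median over the 7 at or above the array median was 0.06.

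Class III glutaredoxins beside the CEPD genes were all below the array median. Of 15 measured, 10 were higher and 5 lower in CEPD1ox, with a median of 0.21. Of all genes below the array median 54.8% were higher and 8.02% at least 1.5-fold higher, which 4 of the 15 were. GRXS7 (0.88), ROXY2 (0.76), GRXC11 (0.67) and GRXS2 (0.61) differed most upward and GRXS1 (-0.65) downward. In the other lines the median difference of the 15 from WT was larger, at 0.40 in CEPD2ox with 2 lower and 0.35 in CEPDL2ox with 3 lower. WT was the lowest of the 4 arrays for 9 of the 15. These genes are close paralogs whose shared probes were not tested. For the machinery of nitrogen uptake little could be read. NRT2.5, a nitrate transporter of nitrogen-starved roots, was the only high-affinity transport gene with a row of its own, and its difference was 0.15 at a low signal. The lists of nitrate assimilation and ammonium transport had none, and NRT2.1 was not analysed here. Of 13 transporters named as NPF or nitrate or peptide transporters in the gene table, 9 were lower, with a median of -0.15, where 47.3% of all genes were lower. The count was the same in the other lines, 9 of 13 below WT in each, with medians of -0.26 in CEPD2ox and -0.09 in CEPDL2ox. AT2G26690 (NPF6.2) had the largest difference, with 6.35 in CEPD1ox, 6.79 in CEPD2ox, 6.57 in CEPDL2ox and 6.81 in WT. The glucosinolate transporters GTR1 and GTR2 were at -0.15 and 0.22.

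Iron deficiency genes apart from S8H differed little. IMA2 and IMA1, which encode peptides that promote iron uptake, were at 0.42 and 0.11, the regulator PYE was at 0.15 and BHLH101 at -0.34 from a low signal. The 5 measured of 20 listed had a median of 0.15. Auxin response genes were higher in 6 of 6 measured, with a median of 0.31, where 51.9% of all genes were higher. CEPDL2ox was below WT in 0 of the 6, with a larger median of 0.45, and CEPD2ox in 3, with a median of -0.02. The amido synthetase genes GH3.1, GH3.3 and GH3.5, which inactivate auxin by conjugation, lay at 0.33, 0.31 and 0.31. GH3.3 read 8.02 in CEPD1ox, 7.50 in CEPD2ox, 8.60 in CEPDL2ox and 7.71 in WT, so that CEPD1ox lay between the other lines. The lateral root regulators LBD29 and LBD16 were at 0.21 and 0.11, and IAA29 at 0.94 was at a low signal. ZAT10, a zinc finger gene that touch, wounding and cold induce, read 7.76 in CEPD1ox, 6.98 in CEPD2ox, 7.53 in CEPDL2ox and 6.98 in WT, and was 1.71-fold higher. KIN2, a dehydration gene, was at -0.48, and its signal was 7.36 in CEPD1ox, 7.37 in CEPD2ox, 7.37 in CEPDL2ox and 7.84 in WT. All 3 lines were nearly equal there and WT was higher. The clock gene GI was at 0.18, the hypoxia regulator HRA1 at -0.20, and the reference genes TIP41L, SAND and UBC21 at 0.20, -0.04 and -0.28.

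Among cell wall and secreted protein families, the proline-rich and lipid-transfer-like genes were mostly lower. Of 21 listed after AT3G22142 had been seen, 14 had a row, 12 were lower and 5 were at least 1.5-fold lower, with a median of -0.21. Of all genes 47.3% were lower and 2.95% at least 1.5-fold lower. AT3G22142, AT4G12545 and AT1G62510 are among the 14 largest lower differences of these data, so those genes do not support these counts. The other lines were low as well: CEPDL2ox was below WT in 12 of the 14 (median -0.43) and CEPD2ox in 10 (-0.18). WT was the highest of the 4 arrays in 8, so a difference of the lines and one of the single WT sample cannot be told apart. AT4G12500 read 6.87 in CEPD1ox, 6.29 in CEPD2ox, 6.58 in CEPDL2ox and 7.62 in WT, lower in every line. By contrast the strongest members hardly differed: AT4G12490 at 0.06 and AT4G15160 at -0.09, with signals above 9 on each array. Class III peroxidases were split, 35 higher and 29 lower of 64, with a median of 0.03. After PRX71, AT2G18150 was at -0.61 among those at or above the array median, and AT4G33420 and AT1G30870 at 0.47 and 0.44. AT1G49570 was 3.63-fold higher, with 6.04 in CEPD1ox, 6.30 in CEPD2ox, 6.65 in CEPDL2ox and 4.18 in WT.

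Other families were set against the 51.9% of all genes that were higher and the 47.3% that were lower. Berberine bridge enzyme-like genes had 13 higher and 11 lower of 24 (median 0.04), and the SABATH family 14 higher and 7 lower of 21 (0.20). Of the SABATH genes, 4 lay at or above the array median, with 2 higher and 2 lower (-0.08). The rest lay below it, where 54.8% of all genes were higher. Germin-like genes were 9 and 9 of 18 (0.11), with AT5G39110 at -0.61 and AT5G38940 at -0.51 against AT5G38910 at 0.98. UDP-glycosyltransferases found by name in the gene table were lower in 28 of 47 (-0.07), and after the shift to the same median in 25. UGT73B3 and UGT73B1, stress-induced members that act on flavonoids and other phenolics, were at -0.67 and -0.45. Jacalin-related lectins, carbohydrate-binding proteins, were lower in 4 of the 5 found by name in the gene table (-0.40), and the fifth turned lower under the lowess scaling. That search did not find the jacalin-type lectin gene AT1G60130, which went the other way, at 2.04 below the array median. JAL31 read 6.33 in CEPD1ox, 6.95 in CEPD2ox, 6.71 in CEPDL2ox and 6.85 in WT, and JAL22 was at -0.46. Cytochrome P450 genes (26 measured, median 0.09), glutathione S-transferases (13, -0.05), expansins (24, -0.02), xyloglucan hydrolases (10, 0.15) and WRKY factors (7, -0.05) were counted. These sets too were found by name in the gene table, so members without such a name are left out. At or above the array median lay 3, 7, 12, 5 and 5 of these, in that order, and 0 were past 2-fold. Of all genes there only 0.0876% were 2-fold higher and 0.125% lower, so 0 in sets this small says little. Below the array median, CYP71B38 was 2.24-fold higher, CYP71B26 2.49-fold lower and XTH29 2.46-fold higher.

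**Figure D4:**
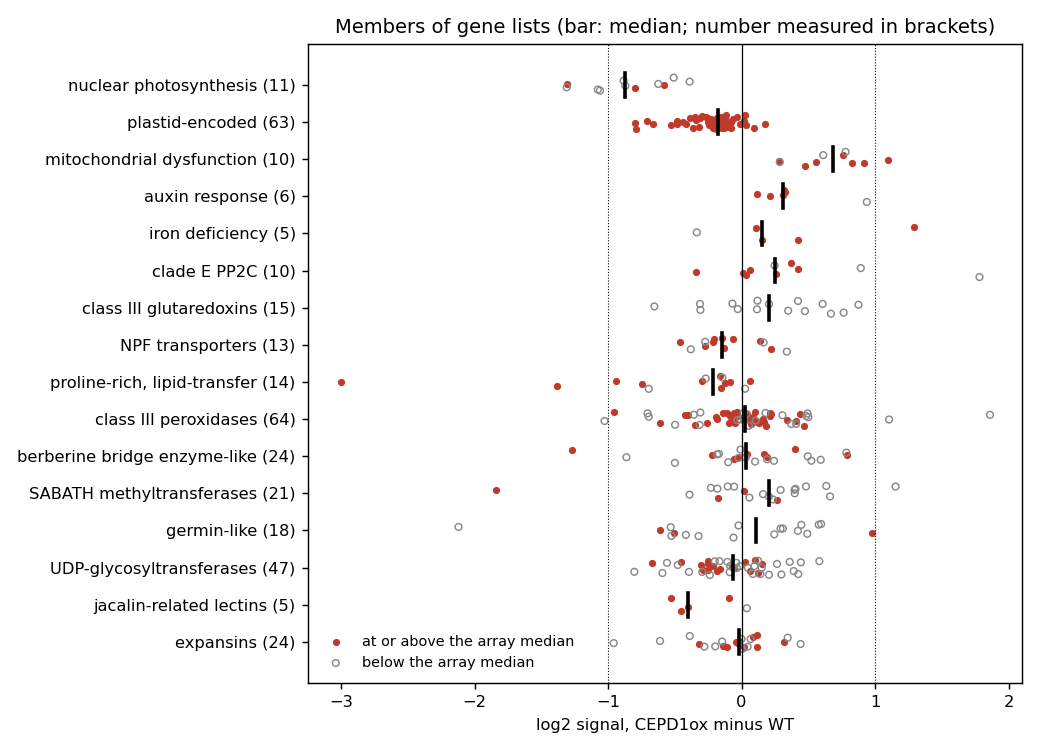
Log2 signal in CEPD1ox minus WT (x axis) of each measured member of 16 gene lists. Red points are genes at or above the array median, open points are below it, black bars are list medians and dotted lines mark 2-fold. The nuclear photosynthesis genes lie wholly below 0 (median -0.87) and the mitochondrial dysfunction genes wholly above it (0.69).

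At lower signals, where 110 genes (1.29%) were 2-fold higher and 61 (0.713%) lower, sizes are limited by background. Highest were the jacalin-type lectin gene AT1G60130 (2.04), the peroxidase gene AT1G49570 (1.86), AT5G12960 (1.85) and AT5G22590 (1.82). The WT signals of AT1G60130, AT5G12960 and AT5G22590 were 2.58, 1.87 and 1.75, below 2.78, the lower quartile of gene values. Lowest were the germin-like gene AT5G39120 (-2.12), AT1G72645 (-2.12), AT1G06645, of the 2-oxoglutarate-dependent dioxygenases (-1.81), and the legume lectin-like gene AT3G15356 (-1.77). AT5G39120 read 3.33 in CEPD1ox, 5.06 in CEPD2ox, 4.70 in CEPDL2ox and 5.45 in WT, so CEPD1ox stood apart. AT3G15356 read 3.42 in CEPD1ox, 3.66 in CEPD2ox, 3.75 in CEPDL2ox and 5.20 in WT, so WT did. PDF1.2a, a defensin gene of the jasmonate and ethylene response, was 2.19-fold higher, but its signals were 2.61 in CEPD1ox, 1.28 in CEPD2ox, 1.03 in CEPDL2ox and 1.48 in WT, all near background.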

How the data were processed

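The authors deposited 1 log2 signal per array row and sample; per the submitters' processing notes, Expression Console 1.3 (Affymetrix) was used. How rows were summarized and normalized, and on which genome build, is not given in the sources used. Their range, 0.431 to 13.8, is that of log2 values. Biotin-labelled cRNA came from 100 ng of total root RNA, per the labels' protocols. Values were used as deposited, and rows were named from the platform annotation, with 16574 of 16722 single-gene rows matched to the TAIR10.1 gene table. That table gives few roles. Roles, and names such as CEPD1, CEPH, S8H and EGR1, come from general knowledge of the loci, and CEPDL1 was not assigned a row. The number of arrays limits the precision.

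Differences were counted at 2-fold. Named genes were the CEPD genes, CEPH, the 14 largest differences in each direction at or above the array median, the 4 largest among other genes, 2 genes on each side of the threshold, and up to 4 members per list. Some list members and the genes of arrays that stand apart were named after their values were seen. Members and lists were chosen with earlier results of these data known, and 8 lists were added after values were seen. Counting was tested on simulated data. Alternatives were other scalings, thresholds, signal limits, a pseudocount and the mean over a gene's rows. Python 3.11.15, pandas 2.3.3 and statsmodels 0.14.6 were used.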

Additional observations from a re-analysis of the deposited data

Results flagged for a closer look

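For S8H the CEPDL2ox array lay below WT by -0.36 while CEPD1ox lay above it. For AT5G04120 both other lines lay below WT, at -0.47 in CEPD2ox and -0.52 in CEPDL2ox. For AT5G64120 (PRX71) the CEPD2ox array lay above WT by 0.36 while CEPD1ox lay below it. These opposite directions rest on 1 array each and were not tested. Among rows that the annotation gives no gene or several genes, 61 of 11097 at or above the array median were at least 2-fold higher in CEPD1ox than in WT and 71 were lower. Their SD of the difference was 0.31, and these rows were not described.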

How the results depend on the processing

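No paired analysis was possible because each genotype has 1 array. At or above the array median the 7 higher and 10 lower genes became 69 and 85 at 1.5-fold, 0 and 3 at 3-fold, and 1 and 3 with the signal limit at the 75th percentile of rows. Over all genes the 117 higher and 71 lower became 755 and 488 at 1.5-fold and 11 and 11 at 3-fold. Leaving out genes below the 25th percentile of gene values left 71 higher and 51 lower. The median of the shoot markers was -0.58 with the 1 member at or above the array median alone, in place of -0.94 over both. Under the other scalings, the other signal limits and the mean over rows these counts stayed within 1.5 times. No named gene past 2-fold changed sign under the alternatives run. Of 138 named genes, 9 moved by more than the SD of genes at their signal with a pseudocount, CEPH among them (1.37 in place of 1.78), and 1 with the mean over rows. Low signals limit the sizes below the array median.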
